A study of Mus musculus with 35 samples.

Results

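Glutathione peroxidases and glutathione transferases were followed across every treatment of cultured bone marrow-derived macrophages (BMDMs) of C57BL/6 mice. The 8 genes were Gpx1, Gpx3 and Gpx4 (peroxidases), Gsto1, Gstm1, Gstp1 and Gstt3 (soluble transferases) and Mgst1 (a membrane-bound transferase), chosen by name among the 47069 gene identifiers of each RNA-seq table. All 8 had a mean of at least 1 FPKM (fragments per kilobase of gene, scaled to library size) over the 35 libraries and were tested with 11354 genes in all. Marrow of wild-type mice or of mice labelled AMPKα1-/- was grown in L929-conditioned medium, and the resulting macrophages were cultured for 24 h with vehicle (DMSO), 100 nM dexamethasone (Dex, a synthetic glucocorticoid), 100 ng/ml lipopolysaccharide (LPS, a bacterial cell wall component), LPS+Dex, 1 µg/ml DAMPs (damage-associated molecular patterns) or DAMPs+Dex. Each of the 12 groups held 3 libraries, except that wild-type LPS held 2 (replicates 2 and 3). Library totals, estimated from the FPKM value of 1 fragment, lay between 15837203 and 31955298 fragments (median 19973568). The methods give N as cultures of individual mice, except where they say otherwise, and the labels do not say what a replicate number marks. The p-values therefore measure the spread between the libraries of a group. The main fit treats these libraries as unpaired across treatments. The labels give neither age nor sex, and the methods describe mixed-sex cohorts of young adult mice. The composition of the DAMPs is not in the labels, and the allele behind AMPKα1-/-, which would remove a catalytic subunit of AMP-activated protein kinase, is not described in the sources used here.

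Glutathione is a small thiol peptide that cells use to remove peroxides and to tag reactive compounds. Glutathione peroxidases oxidize it to reduce hydrogen peroxide and lipid hydroperoxides: Gpx1 is the abundant enzyme of the cytosol and mitochondria, Gpx3 is secreted, and Gpx4 reduces lipid hydroperoxides in membranes and holds back ferroptosis. Glutathione transferases couple glutathione to electrophiles (Gstm1, Gstp1, Gstt3), reduce dehydroascorbate and other substrates (Gsto1) or protect membranes (Mgst1). In macrophages these enzymes act beside the oxidants that the cells themselves release on activation.

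The 3 peroxidases differ from the 5 transferases in their catalytic residue. Each of their principal coding sequences (GENCODE release M21, GRCm38) holds 1 in-frame TGA before the stop codon, annotated as selenocysteine, at codon 47 of 201 in Gpx1, codon 73 of 226 in Gpx3 and codon 73 of 197 in Gpx4, whereas Gsto1, Gstm1, Gstp1, Gstt3 and Mgst1 have 0. The coding bases around it are shown because this codon makes these 3 peroxidases depend on selenium and on the proteins that read TGA as selenocysteine. Those proteins are described with the other lists. The codon, in capitals, lies at chr9:108339451-108339453 for Gpx1, chr11:54907256-54907258 for Gpx3 and chr10:80054737-80054739 for Gpx4, all on the plus strand of GRCm38, and each stretch reads 5′ to 3′.
Gpx1: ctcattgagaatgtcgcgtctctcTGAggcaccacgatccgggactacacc
Gpx3: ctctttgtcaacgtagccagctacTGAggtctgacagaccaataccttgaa
Gpx4: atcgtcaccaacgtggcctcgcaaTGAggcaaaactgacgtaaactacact
In all 3 the TGA is followed by a glycine codon starting with gg, and the bases before it differ.

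All 8 loci are protein-coding genes in GRCm38: Gpx1 at chr9:108338903-108340343, plus strand, Gpx3 at chr11:54902453-54910377, plus strand, Gpx4 at chr10:80047166-80056439, plus strand, Gsto1 at chr19:47854970-47864790, plus strand, Gstm1 at chr3:108012255-108017973, minus strand, Gstp1 at chr19:4035407-4037985, minus strand, Gstt3 at chr10:75774115-75781414, minus strand, and Mgst1 at chr6:138140316-138156755, plus strand. A read of Gstp1 can be hard to place, since its coding sequence is 98.1% identical to that of Gstp2 over 633 bases, and reads shared with such a copy may have been lost or split. Of 5 relatives of Gstm1 compared, the closest is Gstm3, at 89.5% over 657 bases. Gsto1 overlaps Cfap43 on the opposite strand (mean 6.94 FPKM), and the sources used here do not say whether strand was used in counting, so the values of Gsto1 may hold some of its reads. Gstt3 overlaps the protein-coding Gm20441 on the same strand (mean 0.0 FPKM), and reads in the shared part may have been lost.

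Before the comparisons, the labels were checked against genes they name. Prkaa1, which encodes AMPKα1, was not lower in the libraries labelled AMPKα1-/-: it lay between 9.05 and 24.0 FPKM in those 18 libraries (median 15.1) and between 8.59 and 26.1 FPKM in the 17 wild-type libraries (median 15.3). With vehicle it read 14.8, 16.5 and 15.4 FPKM in the libraries labelled AMPKα1-/- and 15.9, 11.8 and 15.3 FPKM in wild type. A value over the whole gene need not show the loss of a few exons, so it does not check the label, and each direction given for genotype is that of libraries labelled AMPKα1-/-. Prkaa2, the other catalytic subunit, stayed at or below 0.130 FPKM in every library. Genes for Dex and LPS were also read, and no gene was read for DAMPs. Fkbp5, a glucocorticoid target, read 1.60, 1.91 and 2.23 FPKM with vehicle and 321, 355 and 346 FPKM with Dex in wild type, and Il1b, an LPS target, read 3.77, 5.67 and 5.45 FPKM with vehicle and 13932 and 16653 FPKM with LPS. All 8 macrophage markers were at or above 1 FPKM in every library, led by Lyz2, and the list summed to between 15410.5 and 40584 FPKM. Single markers moved with treatment in both directions. In wild type the mean of Cd68 was 1522 FPKM with vehicle and 187 FPKM with LPS. With Dex in place of vehicle, Mertk stood at 204 FPKM beside 37.8, Fcgr1 at 8.1 beside 80.6 and Itgam at 11.5 beside 63.5. Erythroid, lymphocyte, mast cell and stromal lists summed to at most 0.335, 2.11, 0.878 and 22.1 FPKM in any library. The dendritic and neutrophil lists also moved with treatment. The dendritic list, led by Itgax, summed to 104 to 338 FPKM with vehicle, 33.4 to 78.2 with Dex, 358 to 559.8 with LPS and 173 to 325 with LPS+Dex in wild type. Its member Ccr7 read 0.0253 to 0.0602 FPKM with vehicle and 37.5 to 109.9 FPKM with LPS in wild type, and it passed the filter on low values through the LPS libraries alone, so no test of it is given. In wild type the neutrophil list summed to 6.58 to 41.6 FPKM with vehicle, 127 to 162 with LPS and 513 to 1201 with LPS+Dex. In libraries labelled AMPKα1-/- it summed to 32.0 to 60.9, 135 to 149 and 339 to 626 FPKM. With LPS+Dex it was led by S100a8 (5.28 ± 0.54 and 3.92 ± 0.48 for LPS+Dex against LPS). Its members did not move together. In wild type the means with vehicle, LPS and LPS+Dex were 5.5, 18.8 and 747 FPKM for S100a8 and 0.639, 122.8 and 39.9 FPKM for Camp. Those of S100a9 (4.22, 1.83 and 0.527), Mmp8 (9.59, 0.909 and 1.47), Ltf (1.46, 0.154 and 0.017) and Ngp (1.90, 0 and 0.046) were lower with LPS than with vehicle. In the labelled libraries Camp read 1.20, 102 and 28.3 FPKM. The part of these lists and markers in the treatment results was not tested.

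On the FPKM scale, which corrects for gene length, Gpx1 was the most abundant of the 8 genes and Gstt3 the least. Medians over the 35 libraries were 718 FPKM for Gpx1, 378 for Gpx4, 309 for Mgst1, 196 for Gstm1, 111 for Gsto1, 50.4 for Gstp1, 14.3 for Gpx3 and 6.23 for Gstt3. The widest range was that of Gpx3, which spanned 68.0-fold from 3.92 FPKM in an LPS library to 266 FPKM in a DAMPs+Dex library, followed by Mgst1 (13.3-fold) and Gstm1 (9.13-fold). Gstt3 varied least, by 3.03-fold. Together the 8 genes took 0.242% to 0.276% of the FPKM sum in wild-type vehicle libraries, 0.0968% to 0.102% with LPS and 0.290% to 0.295% with Dex. In libraries labelled AMPKα1-/- the shares were 0.245% to 0.288%, 0.101% to 0.141% and 0.329% to 0.402% in the same order. Because these are bulk samples, fewer cells of a type and less RNA per cell cannot be told apart.

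**Figure D1:**
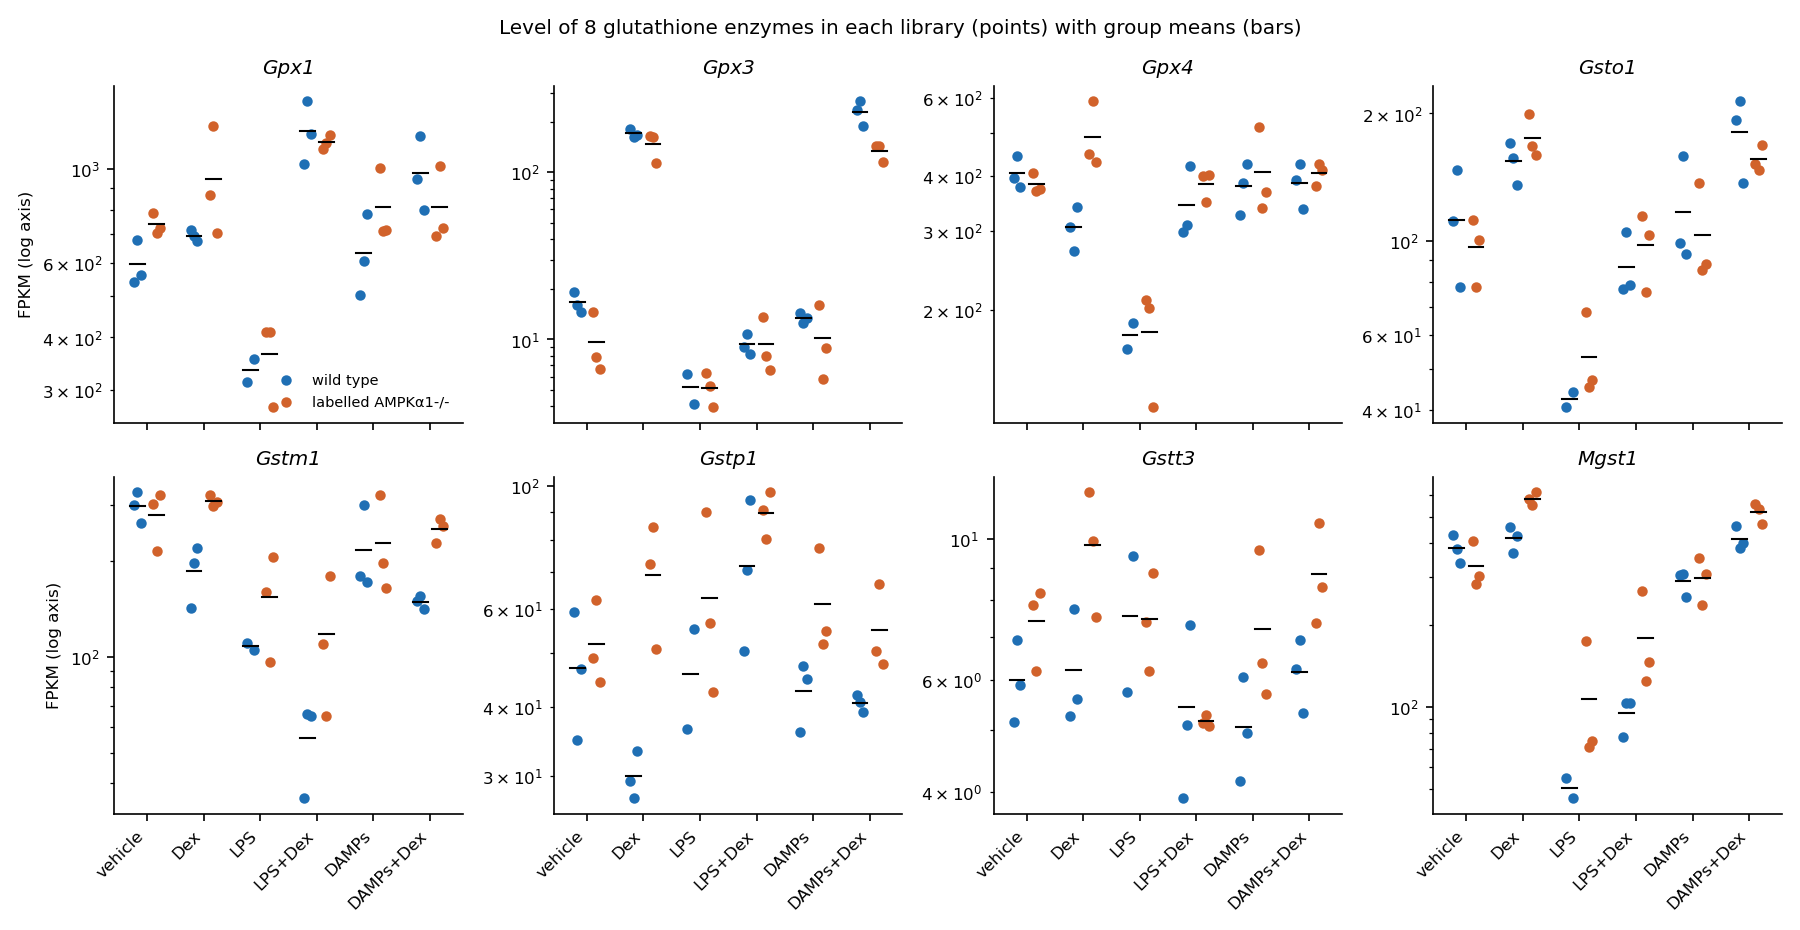
FPKM (log axis) of the 8 genes in each of the 35 libraries by treatment, blue for wild type and orange for libraries labelled AMPKα1-/-, with a bar at each group mean. Gpx3 stands apart in the Dex and DAMPs+Dex groups, where each library lies at or above 114 FPKM, and Mgst1 has its lowest group means with LPS.

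The first question was how each treatment changed the 8 genes. LPS lowered 6 of them in both genotypes, the same 6 (Gpx1, Gpx3, Gpx4, Gsto1, Gstm1 and Mgst1), and raised none. The background was high: in wild type LPS changed 55.7% of the 11354 genes tested (19.9% higher and 35.8% lower), and in libraries labelled AMPKα1-/- 64.3% of the 11354 genes tested (20.2% higher and 44.1% lower). The median log2 fold change of the 8 genes was -1.28 in wild type and -0.88 in the labelled libraries, beside a median over all genes of -0.19 and -0.30. With every library centred on a common median, all 6 falls stood in wild type, whereas 3 (Gpx1, Gpx4 and Mgst1) passed in the labelled libraries. Among all genes the share of calls that were higher rose with that centring from 35.7% to 46.3% in wild type and from 31.4% to 49.0% in the labelled libraries.

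Adding Dex to LPS raised 4 of the 8 genes in wild type and 5 in libraries labelled AMPKα1-/-. LPS+Dex against LPS raised Gpx1, Gpx4, Gsto1 and Mgst1 and lowered Gstm1 in wild type, against a background of 34.1% of the 11354 genes tested (16.6% higher and 17.5% lower). In libraries labelled AMPKα1-/- it raised Gpx1, Gpx3, Gpx4, Gsto1 and Mgst1, against 37.7% of the 11354 genes tested (19.3% higher and 18.4% lower). Dex without LPS was called in 1 of the 8 genes in wild type (Gpx3, higher), where 30.9% of the 11354 genes tested (15.9% higher and 14.9% lower) passed, and Gpx3, Gsto1 and Mgst1 in the labelled libraries, where 27.9% of the 11354 genes tested (11.9% higher and 16% lower) did. In wild type Gpx4 (307, 271 and 339.9 FPKM with Dex), Gstm1 (142, 196 and 219 FPKM) and Gstp1 (29.4, 27.3 and 33.3 FPKM) lay wholly below their vehicle libraries without passing (log2 fold changes -0.41 ± 0.18 (SE), adjusted p = 0.0784, -0.69 ± 0.30 (SE), adjusted p = 0.0812 and -0.60 ± 0.24 (SE), adjusted p = 0.0616). With only the groups compared, all 3 passed. Median log2 fold changes over the 8 genes were 0.82 and 0.75 for LPS+Dex against LPS in wild type and labelled libraries (all genes -0.03 and 0.01), and 0.08 and 0.37 for Dex against vehicle (all genes 0.05 and -0.05).

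Against vehicle, LPS+Dex left Gpx1 and Gstp1 higher and Gpx3, Gstm1 and Mgst1 lower in wild type, where 54.2% of the 11354 genes tested (17.2% higher and 37% lower) passed. In libraries labelled AMPKα1-/- Gpx1 and Gstp1 were higher and Gstm1 and Mgst1 lower, against 57.4% of the 11354 genes tested (16.7% higher and 40.8% lower). Over all genes these 2 comparisons had medians of -0.23 and -0.28, and centring raised the share of calls that were higher from 31.7% to 50.4% and from 29.0% to 50.9%. The comparisons with LPS, vehicle and Dex share groups of libraries, so their values stand side by side and are not independent. Saa3, an acute-phase gene, alone took 16% to 24.0% of the FPKM sum in the LPS+Dex libraries.

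**Figure D2:**
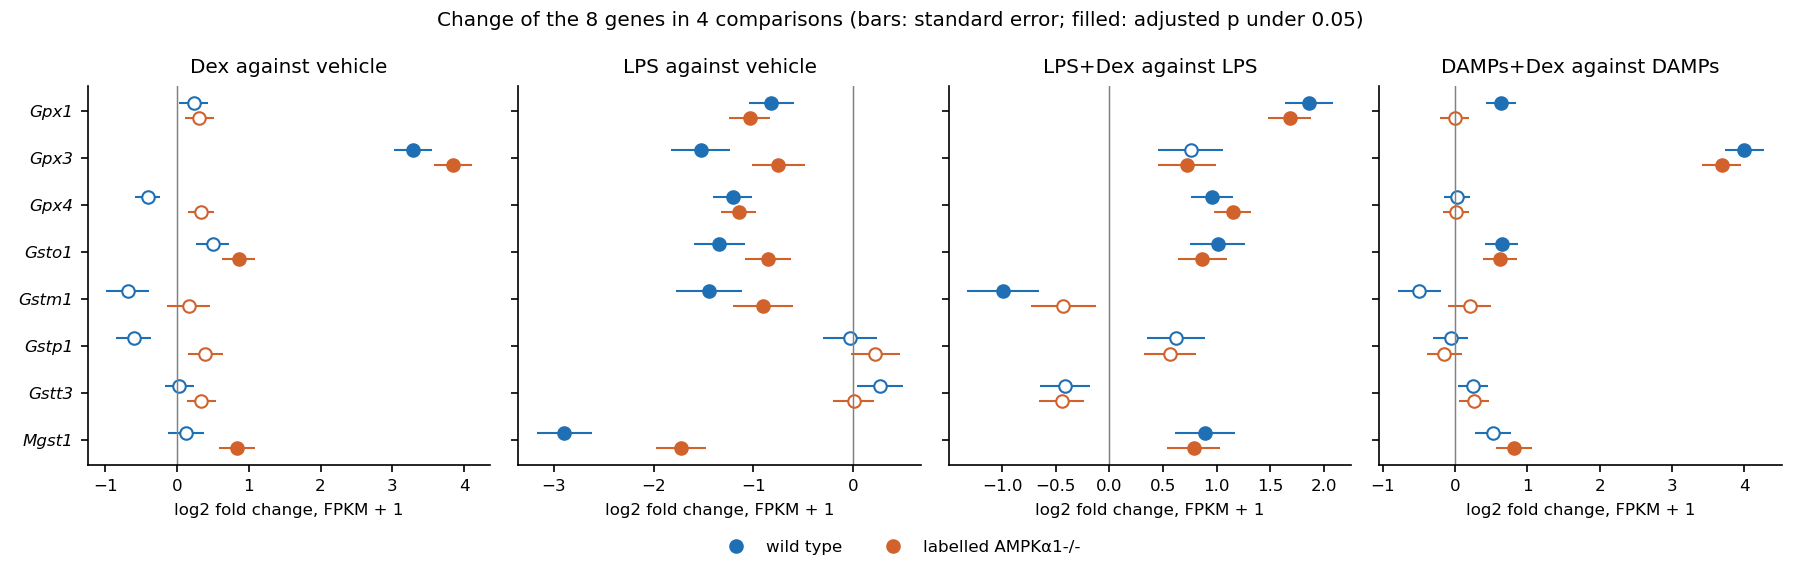
Log2 fold change on the FPKM + 1 scale (horizontal axis) of the 8 genes in 4 comparisons, with the standard error as a bar, blue for wild type and orange for libraries labelled AMPKα1-/-, and filled points where the adjusted p was under 0.05. Gpx3 reaches 3.29 to 4.0 with Dex alone or with DAMPs, and 6 genes have filled points below 0 with LPS in both genotypes.

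Gpx3, the secreted peroxidase, had the largest response of the 8 genes to Dex on vehicle and on DAMPs, though not on LPS. With vehicle its level was 19.4, 16.1 and 14.6 FPKM in wild type and with Dex 182, 163 and 168 FPKM. In the libraries labelled AMPKα1-/- it was 14.5, 7.88 and 6.67 FPKM with vehicle and 165, 163 and 114 FPKM with Dex. Neither pair of groups overlapped, and the group means differed 10.2-fold in wild type (log2 fold change 3.29 ± 0.27 (SE), adjusted p = 2.5e-10) and 15.2-fold in the labelled libraries (3.84 ± 0.27 (SE), adjusted p = 1.1e-11). It also rose on top of DAMPs: 14.3, 12.5 and 13.5 FPKM became 238, 266 and 190.3 FPKM in wild type, and 16.2, 5.78 and 8.88 FPKM became 143, 145 and 116 FPKM in the labelled libraries. Their log2 fold changes were 4.0 ± 0.27 (SE), adjusted p = 4.3e-12 and 3.69 ± 0.27 (SE), adjusted p = 2.4e-11. These 4 calls held in all alternatives run.

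In LPS the same gene stayed low with Dex. It read 6.25 and 4.12 FPKM with LPS and 9.02, 10.8 and 8.23 FPKM with LPS+Dex in wild type, and 6.26, 5.24 and 3.92 and 13.7, 8.01 and 6.57 FPKM in the libraries labelled AMPKα1-/-. The LPS groups lay wholly below the LPS+Dex groups in both genotypes, yet the difference was 0.76 ± 0.30 (SE), adjusted p = 0.0518 in wild type and 0.72 ± 0.27 (SE), adjusted p = 0.0339 in the labelled libraries, so the second passed the test and the first did not. The labelled call was lost without LPS 2 or 3 or LPS+Dex 1 (log2 fold change 0.45 to 0.74), with no filter, with quantile normalization and with only the groups compared, and the wild-type value passed with a pseudocount of 0.1, a mean of at least 5 FPKM, centring or quantile normalization. Against vehicle the log2 fold change with LPS was -1.53 ± 0.30 (SE), adjusted p = 8.4e-05 in wild type and -0.75 ± 0.27 (SE), adjusted p = 0.0165 in the labelled libraries, where the call was lost without vehicle 1 or LPS 3 (-0.60 to -0.45), with centring (-0.47) and with quantile normalization (-0.38). LPS+Dex against vehicle gave -0.77 ± 0.27 (SE), adjusted p = 0.0163 in wild type, a call lost without vehicle 1 or LPS+Dex 3 (-0.70 to -0.67), with centring (-0.55) and with quantile normalization (-0.55). In the labelled libraries that difference was -0.03 and did not pass.

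Gpx1, the main cytosolic peroxidase, was highest with LPS+Dex. In wild type it fell from 541, 681 and 562 FPKM with vehicle to 314 and 356 FPKM with LPS (log2 fold change -0.82 ± 0.23 (SE), adjusted p = 0.0029) and stood at 1028, 1442 and 1210.5 FPKM with LPS+Dex. Libraries labelled AMPKα1-/- read 788, 707 and 724 FPKM with vehicle, 412, 412 and 274 FPKM with LPS and 1110.3, 1152 and 1203 FPKM with LPS+Dex. The 3 groups did not overlap in either genotype. LPS+Dex exceeded LPS 3.66-fold in wild type (1.86 ± 0.23 (SE), adjusted p = 1.6e-07) and 3.16-fold in the labelled libraries (1.68 ± 0.20 (SE), adjusted p = 1.0e-07), and these calls held in all alternatives run. It also lay above vehicle, by 1.04 ± 0.20 (SE), adjusted p = 8.8e-05 and 0.64 ± 0.20 (SE), adjusted p = 0.0081. Dex without LPS gave 717, 692 and 675 FPKM in wild type and 865, 1262 and 705 FPKM in the labelled libraries, and neither value passed the test against vehicle (0.23 ± 0.20 and 0.31 ± 0.20). The response to LPS itself was -1.04 ± 0.20 (SE), adjusted p = 6.4e-05 in the labelled libraries.

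Gpx4, the membrane peroxidase, fell with LPS and rose when Dex was added to it, and with LPS+Dex it was not called above its vehicle level. Wild-type libraries read 396, 443 and 378 FPKM with vehicle, 163 and 187 FPKM with LPS and 299.6, 310.0 and 421 FPKM with LPS+Dex. Those labelled AMPKα1-/- read 406, 371 and 374, then 211, 202 and 120.4, then 400.2, 349 and 402 FPKM. LPS stood apart from both other groups, and vehicle and LPS+Dex overlapped. The fall with LPS was -1.21 ± 0.20 (SE), adjusted p = 7.1e-06 in wild type and -1.15 ± 0.18 (SE), adjusted p = 2.3e-06 in the labelled libraries, and the rise with Dex on top of LPS was 0.95 ± 0.20 (SE), adjusted p = 3.3e-04 and 1.15 ± 0.18 (SE), adjusted p = 5.5e-06. Against vehicle, LPS+Dex differed by -0.25 ± 0.18 (adjusted p = 0.229) and 0.00 ± 0.18 (adjusted p = 1.000), which passed in neither genotype.

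Gsto1, the omega-class transferase, was lowest with LPS and rose when Dex was added to LPS. In wild type it read 111, 147 and 78.0 FPKM with vehicle, 40.5 and 44.0 FPKM with LPS and 76.9, 105 and 78.7 FPKM with LPS+Dex. The fall with LPS (-1.34 ± 0.26 (SE), adjusted p = 6.8e-05) and the rise with LPS+Dex (1.01 ± 0.26 (SE), adjusted p = 0.0029) both passed the test. In libraries labelled AMPKα1-/- the values were 112, 78.0 and 101 FPKM, 67.8, 45.1 and 47.0 FPKM and 114, 75.6 and 103 FPKM in the same order, with log2 fold changes of -0.86 ± 0.23 (SE), adjusted p = 0.0021 for LPS and 0.87 ± 0.23 (SE), adjusted p = 0.0036 for LPS+Dex against LPS. The labelled call with LPS was lost with centring (-0.58). LPS libraries lay below both other groups in each genotype. Dex alone raised Gsto1 in the labelled libraries, from their vehicle level to 199, 167 and 159.9 FPKM (0.86 ± 0.23 (SE), adjusted p = 0.0058), whereas wild type, at 170.0, 157 and 136 FPKM, did not pass (0.50 ± 0.23 (SE), adjusted p = 0.103) but did without vehicle 2 (0.71).

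Mgst1, the microsomal transferase, had the deepest fall with LPS of the 8 genes. Wild-type libraries went from 429, 382 and 337 FPKM to 54.9 and 46.0 FPKM, 7.58-fold lower (-2.90 ± 0.28 (SE), adjusted p = 8.4e-10). Labelled AMPKα1-/-, they went from 406, 282 and 302 FPKM to 175, 71.3 and 75.0 FPKM, 3.08-fold lower (-1.73 ± 0.25 (SE), adjusted p = 8.7e-07). Replicate 1 of the labelled LPS group stood well above the other 2. The difference between the genotypes in this fall was 1.17 ± 0.37 (SE), adjusted p = 0.733. With LPS+Dex Mgst1 reached 77.3, 103 and 104 FPKM in wild type (0.89 ± 0.28 (SE), adjusted p = 0.0141) and 266, 125 and 146 FPKM in the labelled libraries (0.78 ± 0.25 (SE), adjusted p = 0.0135), below every vehicle library in both. The call of the first was lost without LPS 3 (0.76), and that of the second without LPS 2 or 3 or LPS+Dex 1 (0.46 to 0.59), and without LPS 1 the second became 1.20. Leaving out either wild-type LPS library leaves 1 in that group, for each of the 8 genes, and the spread then comes from the remaining groups. Dex alone raised Mgst1 in the labelled libraries to 582, 551 and 615 FPKM (0.83 ± 0.25 (SE), adjusted p = 0.0124, lost without vehicle 2, 0.73), and wild type stood at 458, 367 and 426 FPKM (0.13 ± 0.25 (SE), adjusted p = 0.730).

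Gstm1, the mu-class transferase, fell with LPS and was lower still with LPS+Dex in wild type. It read 298, 328 and 262 FPKM with vehicle, 111 and 105 FPKM with LPS and 35.9, 65.9 and 65.0 FPKM with LPS+Dex in wild type, where the 3 groups did not overlap. The fall with LPS was -1.45 ± 0.33 (SE), adjusted p = 5.8e-04, and the further fall with LPS+Dex was -0.99 ± 0.33 (SE), adjusted p = 0.0220. That second call was lost without LPS 2 or 3 or LPS+Dex 1 (-1.03 to -0.71), with centring (-0.92) and with quantile normalization (-0.83). Libraries labelled AMPKα1-/- read 300.3, 215 and 322 FPKM, 159.9, 95.9 and 205 FPKM and 109.8, 65.2 and 179 FPKM, and their LPS and LPS+Dex groups overlapped (-0.43 ± 0.30 (SE), adjusted p = 0.283). Within the 3 same-numbered pairs LPS+Dex was lower each time, and with the replicate number as a block the value was -0.43 ± 0.26 (SE) and did not pass. Their fall with LPS was -0.90 ± 0.30 (SE), adjusted p = 0.0103, a call lost without LPS 2 (-0.60) and with centring (-0.63). LPS+Dex against LPS passed there without LPS+Dex 3 (-0.79). LPS+Dex left Gstm1 5.33-fold below vehicle in wild type (-2.44 ± 0.30 (SE), adjusted p = 9.0e-08) and 2.37-fold below it in the labelled libraries (-1.33 ± 0.30 (SE), adjusted p = 4.2e-04).

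Gstp1 and Gstt3 were not called with LPS. Gstp1, the pi-class transferase, read 59.2, 34.8 and 46.8 FPKM with vehicle and 36.4 and 55.2 FPKM with LPS in wild type (-0.03 ± 0.27 (SE), adjusted p = 0.931), and 48.9, 62.3 and 44.3 and 89.7, 56.7 and 42.4 FPKM in libraries labelled AMPKα1-/- (0.22 ± 0.24 (SE), adjusted p = 0.434). With LPS+Dex it reached 50.3, 70.5 and 94.5 FPKM and 90.6, 80.3 and 97.5 FPKM. Against vehicle that was 0.59 ± 0.24 (SE), adjusted p = 0.0431 in wild type, where the groups overlapped, and 0.79 ± 0.24 (SE), adjusted p = 0.0074 in the labelled libraries, where they did not. The wild-type call was lost without vehicle 2 or 3 or LPS+Dex 2 or 3 (0.37 to 0.60). Against LPS it was 0.62 ± 0.27 (SE), adjusted p = 0.0810 and 0.56 ± 0.24 (SE), adjusted p = 0.0702. With the replicate number as a block, which the check of pairing allows for the labelled LPS and LPS+Dex libraries, the second was 0.56 with an adjusted p of 0.0475. It also passed without LPS 1 (0.85), and the wild-type value passed without LPS 3 or LPS+Dex 1 (0.85 to 0.91). With Dex alone the wild-type value of Gstp1 was -0.60 ± 0.24 (SE), adjusted p = 0.0616, and it passed without vehicle 2 (-0.80). Gstt3, a theta-class transferase, lay between 3.91 and 11.8 FPKM throughout. With LPS it read 5.74 and 9.38 FPKM in wild type and 7.39, 6.19 and 8.83 FPKM in the labelled libraries, beside 5.16, 6.94 and 5.90 and 7.86, 6.19 and 8.23 FPKM with vehicle, and none of the 6 treatment comparisons called it in either genotype. Labelled LPS+Dex libraries read 5.14, 5.28 and 5.08 FPKM, each below every labelled LPS library (-0.45). That difference had a p under 0.05 in limma only before adjustment, and it did not pass with the replicate number as a block. Against LPS, wild-type LPS+Dex passed without LPS+Dex 3 (-0.61), and against vehicle the labelled LPS+Dex passed without vehicle 2 (-0.55).

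Whether the response to Dex depended on LPS was tested as a difference of log2 fold changes, LPS+Dex against LPS minus Dex against vehicle. A value above 0 says that Dex moved the gene further upward with LPS than without it, not that the response was larger in size. In wild type the difference was above 0 for Gpx1, Gpx4 and Gstp1 and below 0 for Gpx3, where 32% of all genes passed. In libraries labelled AMPKα1-/- it was above 0 for Gpx1 and Gpx4 and below 0 for Gpx3 and Gstt3, against 28.4%. The difference was 1.63 ± 0.30 (SE), adjusted p = 1.5e-04 and 1.37 ± 0.29 (SE), adjusted p = 5.1e-04 for Gpx1 in wild type and labelled libraries. For Gpx3 it was -2.53 ± 0.40 (SE), adjusted p = 2.0e-05 and -3.12 ± 0.38 (SE), adjusted p = 3.3e-07. Gpx4 gave 1.36 ± 0.26 (SE), adjusted p = 2.5e-04 and 0.81 ± 0.25 (SE), adjusted p = 0.0143. Gstp1 gave 1.22 ± 0.37 (SE), adjusted p = 0.0117 in wild type and 0.17 ± 0.34 (SE), adjusted p = 0.776 in the labelled libraries, and Gstt3 -0.45 ± 0.31 (SE), adjusted p = 0.276 and -0.79 ± 0.29 (SE), adjusted p = 0.0434. The log2 fold changes behind 3 of the differences that passed had opposite signs: -0.41 ± 0.18 with Dex alone and 0.95 ± 0.20 on LPS for wild-type Gpx4, -0.60 ± 0.24 and 0.62 ± 0.27 for wild-type Gstp1, and 0.34 ± 0.21 and -0.45 ± 0.21 for labelled Gstt3. Only the rise of Gpx4 on LPS was called among these 6. The labelled call of Gpx4 was lost without labelled LPS 3 (0.55) and with centring (0.74), the wild-type call of Gstp1 without wild-type LPS 2 (0.93), and the labelled call of Gstt3 in 9 of 12 fits that left out 1 library and with centring (-0.86) or quantile normalization (-0.89).

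**Figure D3:**
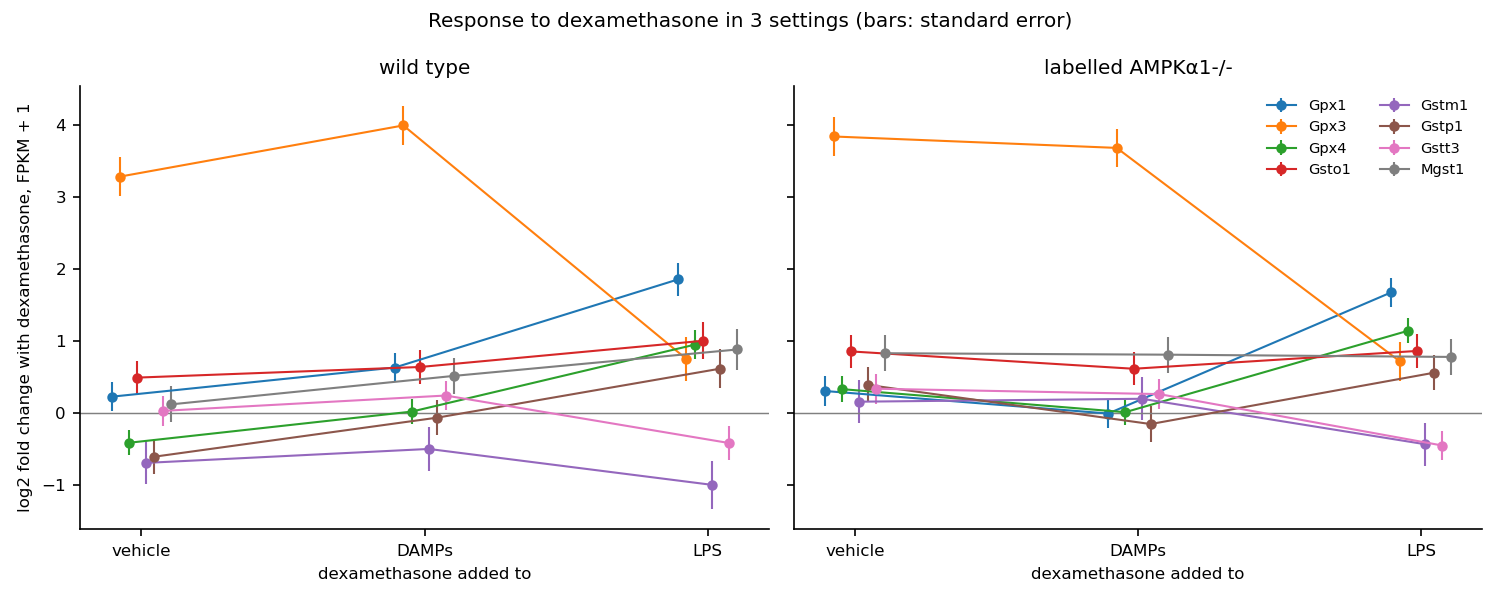
Log2 fold change with Dex (vertical axis, FPKM + 1 scale, standard errors as bars) when Dex was added to vehicle, DAMPs or LPS, for the 8 genes in wild type (left) and libraries labelled AMPKα1-/- (right). The line of Gpx3 drops from 4.0 with DAMPs to 0.76 with LPS in wild type, and the lines of Gpx1 and Gpx4 each reach their highest point with LPS.

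DAMPs alone changed none of the 8 genes in limma's moderated test, and 0 of 8 had an unadjusted p under 0.05 in either genotype, where 1099 and 1509 of the 11354 genes did. The largest shift was in Gstm1 of wild type (-0.49 ± 0.30). Wild-type Mgst1 (306, 309 and 253 FPKM with DAMPs) and Gpx3 (14.3, 12.5 and 13.5 FPKM) lay wholly below their vehicle libraries without passing. In the labelled libraries 0 of the 8 lay apart, and the share over all genes was not counted. Few genes passed at all: 2.01% of the 11354 genes tested (1.22% higher and 0.793% lower) in wild type and 4.13% of the 11354 genes tested (1.89% higher and 2.24% lower) in libraries labelled AMPKα1-/-. Adding Dex to DAMPs raised Gpx1, Gpx3 and Gsto1 in wild type, against 24.3% of the 11354 genes tested (11.7% higher and 12.6% lower), and Gpx3, Gsto1 and Mgst1 in the labelled libraries, against 25.3% of the 11354 genes tested (13.1% higher and 12.2% lower). Gpx1 went from 504, 606 and 784 to 943, 1196 and 799 FPKM in wild type (0.64 ± 0.20 (SE), adjusted p = 0.0204) and from 1004, 713 and 718 to 695, 1013 and 726 FPKM in the labelled libraries (0.00 ± 0.20 (SE), adjusted p = 0.996). Gsto1 went from 98.9, 159 and 93.0 to 193, 214 and 137 FPKM (0.64 ± 0.23 (SE), adjusted p = 0.0416) and from 137, 85.2 and 88.3 to 152, 147 and 168 FPKM (0.62 ± 0.23 (SE), adjusted p = 0.0491). Both Gsto1 calls sat just under the threshold. They were lost without DAMPs 1 or 3 or DAMPs+Dex 1 or 2 in wild type (0.50 to 0.59) and without DAMPs 2 or 3 or DAMPs+Dex 1, 2 or 3 in the labelled libraries (0.50 to 0.66), and with centring. Mgst1 reached 555, 536 and 472 FPKM from 352, 238 and 307 FPKM in the labelled libraries (0.81 ± 0.25 (SE), adjusted p = 0.0157, lost without DAMPs 2 or DAMPs+Dex 1, 0.66 to 0.77). In wild type Mgst1 went from 306, 309 and 253 FPKM to 462, 383 and 399.6 FPKM without overlap. Its p in limma was under 0.05 there only before adjustment. The wild-type call of Gpx1 was lost without DAMPs 1 or 2 or DAMPs+Dex 2 (0.48 to 0.62), with centring (0.63) and with only the groups compared.

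The genotypes were compared within each treatment. With Dex, Gpx4, Gstp1 and Gstt3 were higher in the libraries labelled AMPKα1-/-, and with each of the other 5 treatments limma called 0 of the 8 genes. Among all genes 26.5% passed with Dex, beside 0.432% with vehicle, 0.766% with LPS, 0.669% with LPS+Dex, 0.731% with DAMPs and 1.06% with DAMPs+Dex, so the Dex groups stood apart. Their count of 3008 genes dropped to 305 without wild-type Dex 2, to 308 without labelled Dex 2 and to 1673 without wild-type Dex 1. Gstp1 read 29.4, 27.3 and 33.3 FPKM in wild type and 72.3, 84.5 and 50.9 FPKM in the labelled libraries with Dex (1.15 ± 0.24 (SE), adjusted p = 0.0038), and the groups did not overlap. Gpx4 read 307, 271 and 339.9 FPKM and 447, 589 and 430.3 FPKM (0.67 ± 0.18 (SE), adjusted p = 0.0124), a call lost without wild-type Dex 2 or labelled Dex 2 (0.52 to 0.58). Gstt3 read 5.27, 7.77 and 5.60 FPKM and 11.8, 9.93 and 7.54 FPKM, which overlapped (0.57 ± 0.21 (SE), adjusted p = 0.0421), and its call was lost without any one of the Dex libraries except labelled replicate 3 (0.44 to 0.72). Leaving out 1 library added calls: Gpx1 passed with Dex without labelled Dex 3 (0.59), Mgst1 with LPS without labelled LPS 2 (1.17) and Gstm1 with LPS+Dex without labelled LPS+Dex 2 (1.37). Before adjustment, at a p under 0.05, the labelled libraries differed in 1 gene with vehicle (Gpx3), 1 with LPS (Mgst1), 2 with LPS+Dex (Gstm1, Mgst1), 0 with DAMPs and 3 with DAMPs+Dex (Gpx3, Gstm1 and Gstt3). Over all 11354 genes that p was reached by 700, 1300, 921, 860 and 1067 genes in the same order, so 1 of 8 lay near the background. Some groups lay apart between genotypes without a call, a share not counted over all genes. With Dex these were Gstm1 (142 to 219 FPKM in wild type, 297 to 322 labelled) and Mgst1 (367 to 458, 551 to 615). Gstm1 (141 to 155, 227 to 271) and Gstp1 (39.2 to 42.0, 47.8 to 66.7) were higher with DAMPs+Dex. So were Gstt3 (5.32 to 6.94, 7.37 to 10.6) and Mgst1 (383 to 462, 472 to 555). Gpx3 (190 to 266, 116 to 145) was lower there. Outside Dex and DAMPs+Dex at most 2 of the 8 lay apart.

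Averaged over the 6 treatments with equal weight, Gstm1, Gstp1, Gstt3 and Mgst1 were higher and Gpx3 lower in the libraries labelled AMPKα1-/-, where 21.4% of all genes passed. Log2 fold changes were 0.50 ± 0.10 (SE), adjusted p = 9.5e-04 for Gstp1, 0.49 ± 0.12 (SE), adjusted p = 0.0068 for Gstm1, 0.40 ± 0.10 (SE), adjusted p = 0.0070 for Mgst1, 0.28 ± 0.09 (SE), adjusted p = 0.0213 for Gstt3 and -0.38 ± 0.11 (SE), adjusted p = 0.0159 for Gpx3. The Gstt3 call was lost without wild-type LPS 2 (0.23). Not every treatment shared these differences. Between genotypes Gpx3 stood at -0.007 with LPS and -0.04 with LPS+Dex, and Gstt3 at 0.006 and -0.03. With vehicle, Mgst1 (means 330 FPKM labelled and 383 FPKM wild type) and Gstm1 (279 and 296 FPKM) leaned lower in the labelled libraries. The mean of Gstp1 was higher there with each treatment. Gpx4 passed without labelled LPS 3 (0.19), and otherwise Gpx1, Gpx4 and Gsto1 did not pass (0.14 ± 0.08, 0.15 ± 0.07 and 0.02 ± 0.10). Neutrophil markers moved with genotype too: of 4 that passed the filter on low values in both genotypes, 3 were higher in the labelled libraries in this average, led by S100a9 (1.66 ± 0.28) and Mmp8 (1.52 ± 0.14), and 4 of 4 were with Dex. Ngp and Ltf passed that filter through the labelled libraries alone and are not counted. Camp, one of the 4, stood low with Dex (means 0.134 FPKM in wild type and 1.37 FPKM in labelled libraries). With LPS+Dex, S100a8 leaned lower in the labelled libraries (-0.88 ± 0.48) without passing. The 10 markers summed to 77.7 to 116 FPKM in labelled Dex libraries and 19.9 to 37.1 FPKM in wild-type Dex libraries, led by Mmp8, with Ly6g and Elane at or below 0.475 FPKM in every library. Itgax was lower in the labelled libraries in the average (-0.65 ± 0.20) and with Dex (-1.26 ± 0.47), and the stromal list, led by Col1a1 and Col1a2, summed to 2.91 to 4.42 FPKM in labelled Dex libraries and 11 to 22.1 FPKM in wild-type Dex libraries. Among the macrophage markers with Dex, Lyz2 (0.71 ± 0.22) and Cd14 (0.77 ± 0.24) were higher and Mertk (-0.64 ± 0.19) lower in the labelled libraries. The other macrophage markers were not called there. The part of these markers in the differences of Mgst1, Gstm1, Gstp1, Gstt3 and Gpx3 was not tested.

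**Figure D4:**
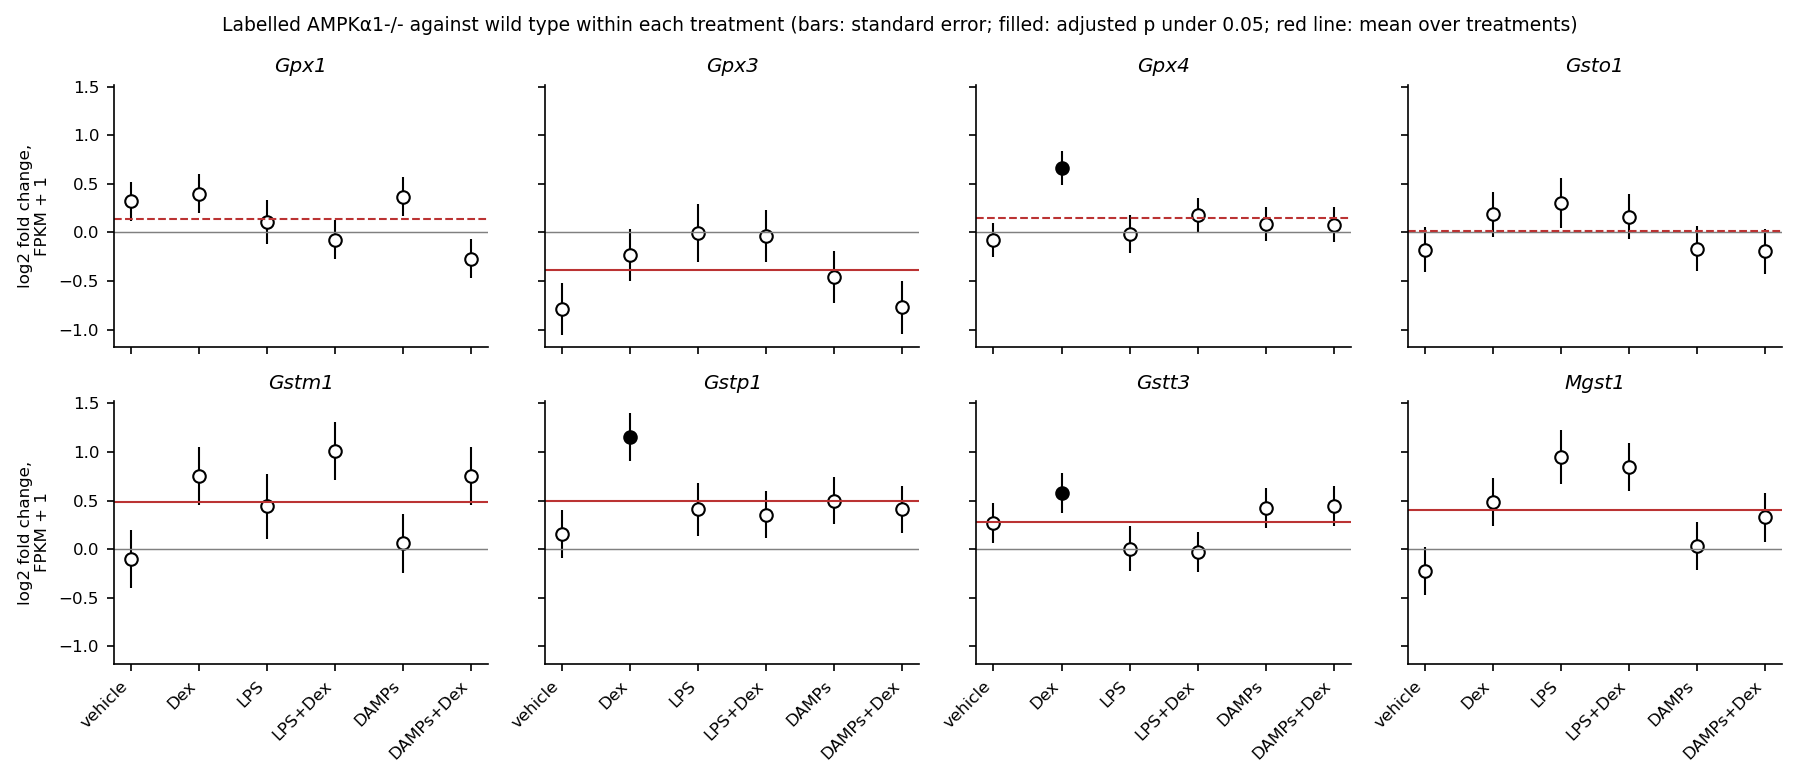
Log2 fold change of libraries labelled AMPKα1-/- against wild type (vertical axis, FPKM + 1 scale, standard errors as bars) within each treatment, filled where the adjusted p was under 0.05, with the average over treatments as a red line (solid where it passed). Filled points appear with Dex alone, in Gpx4, Gstp1 and Gstt3.

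The genotype difference in each response was tested as an interaction, and no gene passed. Limma called 0% of all genes, and 0 of the 8, for the genotype difference in each of the responses to Dex, LPS, LPS+Dex against LPS, DAMPs and DAMPs+Dex against DAMPs. With p under 0.05 before adjustment it gave 2441, 514, 311, 66 and 234 genes in that order, and 2 (Gpx4 and Gstp1), 1 (Mgst1), 0, 0 and 1 (Gpx1) of the 8. For Dex, the differences were 1.00 ± 0.34 (SE), adjusted p = 0.195 for Gstp1 and 0.74 ± 0.25 (SE), adjusted p = 0.195 for Gpx4. A call in 1 genotype and not in the other, as for Gsto1 and Mgst1 with Dex, is therefore not shown to differ between them.

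Genes around the 8 enzymes were counted in lists fixed with them. Of the 5 other peroxidases only Gpx7 reached a mean of 1 FPKM, and it fell with LPS in both genotypes (-0.70 ± 0.28 and -1.38 ± 0.25). Of 26 other transferases and related membrane proteins 16 were tested, and LPS lowered 7 and raised 4 of them in wild type and lowered 8 and raised 5 in libraries labelled AMPKα1-/- (list medians -0.41 and -0.44), beside 55.7% and 64.3% of all genes called. Ptges, which makes prostaglandin E2, rose by 7.09 ± 0.25 and 7.07 ± 0.23 on the log2 scale. Gstt4, a theta-class relative of Gstt3, was listed at 0 in the 3 wild-type vehicle libraries and stood at 37.4 and 59.0 FPKM with LPS. Alox5ap, needed for leukotriene synthesis, fell by 3.34 ± 0.33 in wild type. LPS+Dex against LPS raised 7 and lowered 6 of the 16 in wild type and raised 6 and lowered 6 in the labelled libraries, beside 34.1% and 37.7% of all genes. Gsta3, an alpha-class transferase, rose by 3.99 ± 0.41 and 3.99 ± 0.37, and Mgst2, a relative of Mgst1, rose by 3.11 ± 0.40 and 2.65 ± 0.36. Gstt4 stood at 1.37 to 3.99 FPKM with LPS+Dex in wild type and 1.82 to 2.46 FPKM in the labelled libraries. It passed the filter on low values through the LPS libraries alone, so its calls, which are among those counted, had to come out this way. Hpgds, the prostaglandin D2 synthase of the family, fell with Dex alone in both (-0.94 ± 0.19 and -1.79 ± 0.19).

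Glutathione supply was followed in 3 lists, with medians for LPS+Dex against LPS of -0.34 and -0.32 (synthesis), 0.14 and 0.16 (recycling and use) and 0.51 and 0.43 (NADPH) in wild type and labelled libraries. Among all genes 55.7% and 64.3% were called with LPS and 34.1% and 37.7% with LPS+Dex against LPS, and counts near these shares are no result about a list. Of 6 tested genes for its synthesis and the import of its amino acids, LPS raised 1 in each genotype, Slc7a11, the cystine importer (3.35 ± 0.42 and 4.19 ± 0.38), and lowered 4 in wild type and 3 in libraries labelled AMPKα1-/-. Gclm, the modifier of glutamate-cysteine ligase, fell in both (-1.70 ± 0.30 and -1.35 ± 0.27). LPS+Dex raised 1 and lowered 2 of them against LPS in wild type and raised 0 and lowered 1 in the labelled libraries, among them Gss, glutathione synthetase (-0.45 ± 0.14 and -0.62 ± 0.12). For the 10 genes that recycle or use glutathione, LPS+Dex raised 3 and lowered 1 in wild type and raised 4 and lowered 1 in the labelled libraries. Gsr, glutathione reductase, was the 1 that fell in both (-0.74 ± 0.21 and -0.60 ± 0.19), and Hagh, which completes methylglyoxal removal, rose (0.93 ± 0.17 and 0.89 ± 0.15). Glrx, a glutaredoxin, rose with LPS by 2.81 ± 0.23 and 2.12 ± 0.21. Among 6 genes for NADPH, which drives Gsr, LPS lowered 5 and raised 1 (Me1) in both genotypes, and LPS+Dex raised 3 and lowered 1 (Me1) in both, with Idh1 at 0.90 ± 0.26 and 0.69 ± 0.24. Of 11 genes for glutathione breakdown and export, LPS+Dex raised 3 and lowered 4 in wild type and raised 5 and lowered 4 in the labelled libraries. Ggt5, a gamma-glutamyltransferase, was among those that rose (1.67 ± 0.28 and 2.82 ± 0.25).

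**Figure D5:**
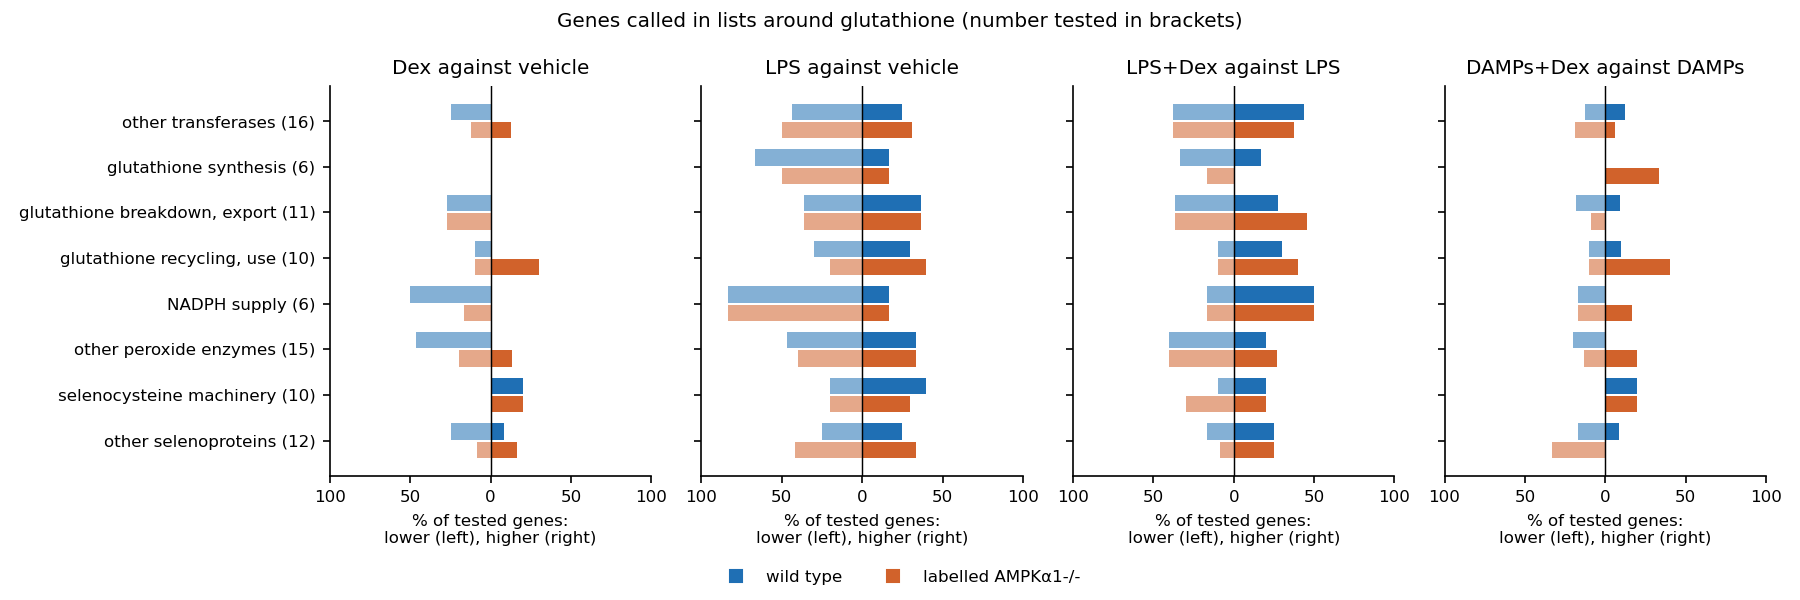
Percent of the tested genes of 8 lists that were called lower (left, pale) or higher (right, dark) in 4 comparisons, blue for wild type and orange for libraries labelled AMPKα1-/-, with the number tested in brackets. LPS against vehicle shows the longest bars, with 5 of 6 NADPH supply genes lower in both genotypes.

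Peroxide enzymes outside the glutathione family were counted with Dex as well. Of 15 tested, Dex lowered 7 and raised 0 in wild type and lowered 3 and raised 2 in libraries labelled AMPKα1-/- (medians -0.39 and 0.09), beside 30.9% and 27.9% of all genes, so the labelled count lay near the background. Prdx1, a peroxiredoxin, fell by 1.86 ± 0.26 and 0.89 ± 0.26 on the log2 scale, Srxn1, which reactivates peroxiredoxins, by 2.2 ± 0.26 and 1.61 ± 0.26, and Txnrd1, thioredoxin reductase and itself a selenoprotein, by 1.02 ± 0.26 and 1.07 ± 0.26. With LPS+Dex against LPS 3 rose and 6 fell in wild type and 4 rose and 6 fell in the labelled libraries, beside 34.1% and 37.7% of all genes. LPS raised 5 and lowered 7 of the 15 in wild type and raised 5 and lowered 6 in the labelled libraries, beside 55.7% and 64.3% of all genes. Sod3, the extracellular superoxide dismutase, is in both counts but passed the filter on low values through the LPS libraries alone, so its rise with LPS and its fall with LPS+Dex had to come out this way. Those lower with LPS included catalase, Cat (-2.39 ± 0.23 and -1.59 ± 0.21), and Prdx1 (-2.06 ± 0.29 and -1.14 ± 0.26). Those higher included Sod2, the mitochondrial superoxide dismutase (4.68 ± 0.14 and 4.80 ± 0.13), and Prdx5 (3.73 ± 0.21 and 3.87 ± 0.19).

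The selenocysteine machinery, which the TGA codons of the 3 peroxidases require, was also counted. Of its 10 tested genes Dex raised 2 and lowered 0 in each genotype, a share below the 30.9% and 27.9% of all genes called. One of them was Selenop, the secreted selenium carrier (1.12 ± 0.17 and 1.44 ± 0.17). LPS raised 4 and lowered 2 in wild type and raised 3 and lowered 2 in libraries labelled AMPKα1-/-, near or below the 55.7% and 64.3% of all genes called. Selenop fell with LPS by 5.15 ± 0.19 and 4.87 ± 0.17, and Sephs2, which makes the selenium donor, rose by 2.41 ± 0.19 and 2.81 ± 0.17.

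Likeness across the 35 libraries was measured as Pearson's r of log2(FPKM + 1), a description only, since treatments and depth are shared. Among the 8 genes Gsto1 and Mgst1 were closest (0.86), then Gpx3 and Gsto1 (0.82) and Gpx1 and Gpx4 (0.76). Among 8589 candidates the genes most like Gpx3 were Pex13 (0.97), Mrgpre (0.97) and Tmod1 (0.97). For Gpx1 they were Nudt14 (0.91), Idh3b (0.91) and Psen2 (0.90), for Gpx4 Higd2a (0.93), Acads (0.93) and Rogdi (0.92), for Gsto1 Ethe1 (0.93), Ucp2 (0.92) and Surf1 (0.92) and for Mgst1 Wdr45 (0.96) and Map1lc3b (0.95). Gstm1 had Slc48a1 (0.92), Ftl1 (0.89) and Snx3 (0.89), Gstp1 had Ndufa1 (0.87), Fcor (0.83) and Atp5mpl (0.82), and Gstt3, the weakest, had Pef1 (0.73), Eif4e2 (0.70) and Nrbp1 (0.70).

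Promoters of the 8 genes were searched for 3 motifs on both strands in the 250 bases before each RefSeq start (GRCm38.p6, 14 promoters). The full palindrome of the glucocorticoid receptor was in none of them, Gpx3 included, and in 0.387% of all 32851 promoters. The antioxidant response element core TGACNNNGC was in 1 promoter of Mgst1 and 10.2% of all, and the AP-1 element TGANTCA in that of Gstp1 and 6.75% of all. These windows say nothing of sites farther away.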

How the data were processed

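RNA-seq of cultured macrophages was analysed in 35 libraries (12 groups of genotype and treatment, assigned from the sample labels). The authors deposited one table of FPKM values per library, already scaled for gene length and library size, and no replicates were pooled. The submitters' processing notes name Bowtie2 2.2.3, TopHat2 2.0.12, HTSeq 0.6.1, DESeq2 and the builds GRCm38 and mm10. Neither the annotation release nor the use of strand in counting is stated there or in the methods. Gene names and loci were taken from GENCODE release M21 (GRCm38) and promoters from RefSeq (GRCm38.p6).

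Genes with a mean of at least 1 FPKM (11354) were fitted as log2(FPKM + 1) with limma 3.58.1 (R 4.3.3, linear model over all 12 groups, trended empirical Bayes, 2-sided), and p-values were adjusted by Benjamini-Hochberg over all genes tested, with calls at 0.05. Fold changes on this scale understate those of low genes; ratios are of mean FPKM. The limma step was tested on simulated data, and sequences were read with Python 3.11.15. Depth is known only as an estimate, with the commonest low value of FPKM times exon length in a library taken as 1 fragment. Many low values were not whole multiples of it, and no count test was run.

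The fit was repeated with a pseudocount of 0.1, without the filter, with a minimum mean of 5 FPKM, after centring every library on a common median, after quantile normalization, with the compared groups alone, with replicate number as a block, and without each library in turn. The numbers were taken to pair the samples where all 3 same-number correlations of deviations exceeded 0.1. In the labelled AMPKα1-/- libraries this held for vehicle with Dex (0.30, 0.22 and 0.40), vehicle with LPS (0.24, 0.12 and 0.32), vehicle with LPS+Dex (0.25, 0.33 and 0.36) and LPS with LPS+Dex (0.37, 0.37 and 0.36). These were 4 of 15 pairs of treatments, read from the same libraries as the fits. Over all 15, same-number correlations there ran from -0.49 to 0.47 (29 of 45 over 0.1). Those between different numbers ran from -0.59 to 0.60 (23 of 90 over 0.1). What a number stands for is not explained in the labels.

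The members and lists were chosen with earlier results of these data known. Named genes were the 8 members, up to 3 called genes of each list with the largest absolute change, and the 3 genes most like each member (mean of at least 5 FPKM), of which 1 is not reported here; Prkaa1, Prkaa2, Fkbp5, Il1b, Saa3 and the markers served as checks. Replicate 1 of wild-type LPS was not analysed here.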

Additional observations from a re-analysis of the deposited data

Results flagged for a closer look

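The response to Dex differed with and without LPS in 8 tests of the difference itself (LPS+Dex against LPS minus Dex against vehicle, log2 scale, limma over all genes). In wild type the differences were 1.63 for Gpx1, -2.53 for Gpx3, 1.36 for Gpx4 and 1.22 for Gstp1. In libraries labelled AMPKα1-/- they were 1.37 for Gpx1, -3.12 for Gpx3, 0.81 for Gpx4 and -0.79 for Gstt3. The Gpx1 and Gpx3 differences passed in both genotypes under all alternatives run. Of all genes, 32% passed in wild type and 28.4% in the labelled libraries.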

How the results depend on the processing

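No called value of the 8 genes changed sign: of 3216 alternative values, 186 changed sign with neither value called and 0 with a value called. The larger moves in counts of members called were as follows, and smaller ones are not listed. With centring, DAMPs+Dex against DAMPs in wild type gave 1, LPS against vehicle in libraries labelled AMPKα1-/- 3, and the Dex response with minus without LPS in those libraries 2. Dex against vehicle in wild type gave 3 with quantile normalization, 4 with only the groups compared and 4 with the replicate block. With only the groups compared, LPS+Dex against LPS in the labelled libraries gave 3 and the genotypes with DAMPs+Dex 1. Leaving out 1 library gave 1 to 3 for Dex against vehicle in wild type (3 without vehicle 2), 3 to 5 for LPS+Dex against vehicle in wild type (3 without LPS+Dex 3), 1 to 3 for DAMPs+Dex against DAMPs in wild type (1 without DAMPs 1 or DAMPs+Dex 2) and in the labelled libraries (1 without DAMPs 2 or DAMPs+Dex 1), 3 to 6 for LPS+Dex against LPS in the labelled libraries (3 without LPS 2, LPS 3 or LPS+Dex 1), 2 to 4 for their Dex response with minus without LPS (2 without LPS 3), 1 to 4 for the genotypes with Dex (1 without wild-type or labelled Dex 2), 0 to 1 with LPS (1 without labelled LPS 2) and 0 to 1 with LPS+Dex (1 without labelled LPS+Dex 2). The cause was not tested. Where the numbers were taken to pair the samples, the replicate block changed no call other than that of Gstp1. In wild type 5 of 15 pairs of treatments also had every same-number correlation over 0.1. Of the comparisons made this held for LPS with LPS+Dex, which has 2 pairs (0.11 and 0.43), too few to count as paired; with the block Gpx3 (0.72) and Gstp1 (0.65) passed there. In the comparisons not paired, the block added 7 calls among the 8 genes and removed 1, that of Gstt3 averaged over treatments (0.29). It moved the count of all genes averaged over treatments between genotypes from 2432 to 1485, and gave 5 genes for the interaction with LPS.

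With only the groups compared, counts over all genes moved from 3871 to 1931 for LPS+Dex against LPS and from 2756 to 1825 for DAMPs+Dex against DAMPs in wild type, from 228 to 0 and from 469 to 274 for DAMPs in wild type and labelled libraries, and between genotypes from 49 to 13 with vehicle, 87 to 4 with LPS, 76 to 7 with LPS+Dex, 83 to 7 with DAMPs and 120 to 32 with DAMPs+Dex. Without a filter the genotypes gave 92 with vehicle, 450 with LPS and 146 with LPS+Dex, and the interactions 21 (Dex), 118 (LPS), 75 (LPS+Dex), 2 (DAMPs) and 9 (DAMPs+Dex). A mean of at least 5 FPKM gave 27 with vehicle and 54 with DAMPs, a pseudocount of 0.1 gave 41 with DAMPs, and centring gave 4 for the Dex interaction. Depth is an estimate, so no counting interval is given, and values of Gstt3 and of Gpx3 under LPS are the lowest of the 8 genes.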

Other observations

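The selenoproteins Selenow and Selenoh moved in opposite directions with LPS, and no count is given for the rest of their list. Selenow, a small thioredoxin-like selenoprotein, was higher with LPS in both genotypes. In wild type it read 84.3 to 132 FPKM with vehicle, 473 to 651 FPKM with LPS and 211 to 296 FPKM with LPS+Dex. Labelled libraries read 96.4 to 131, 427 to 704 and 233 to 296 FPKM in the same order. Selenoh, a nuclear selenoprotein, read 14.7 to 31.0 FPKM with vehicle in wild type. It was lower with LPS (9.30 to 9.74 FPKM) and higher again with LPS+Dex (18.6 to 30.1 FPKM). Selenop stood at 3141 to 3943 FPKM with vehicle, 7548 to 8102 FPKM with Dex, 92.9 to 107 FPKM with LPS and 251 to 377 FPKM with LPS+Dex in wild type.

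S100a8, a neutrophil and activated macrophage gene, led the neutrophil list in the LPS+Dex libraries, at 478 to 1147 FPKM in wild type and 301 to 581 FPKM in those labelled AMPKα1-/-.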
